A study of Drosophila melanogaster with 8 samples.

Results

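Genes of the Hedgehog pathway and the engrailed pair were examined for binding of RNase H1 in the wing discs of *Drosophila melanogaster*, taken from larvae of the third instar. They are *hh*, *ptc*, *smo*, *cos*, *ci*, *en* and *inv*, 7 genes chosen by symbol from the authors' gene tables, among 9826 genes with a Dam-RNase H1 peak listed in either genotype. Control larvae expressed Dam alone (1 library) or Dam fused to RNase H1 (3 libraries) from the constructs UAS-LT3-Dam and UAS-LT3-Dam-RNase H1 under *nub*, a driver of the prospective wing. The mutant larvae carried ecd1, a temperature-sensitive allele of *ecdysoneless*, with the same constructs (1 Dam library and 3 Dam-RNase H1 libraries). A heat-sensitive tub-Gal80 kept the constructs silent at 25 °C in both genotypes. On day 6 after egg laying all larvae were moved to 29 °C for 24 h, which released the constructs and inactivated the mutant protein together, and discs were dissected on day 7. The labels disagree on the ecd1 Dam-only library, described as Dam-RNase H1 but titled, and given the genotype of, Dam alone.

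Dam methylates adenine in GATC sites, so methylated DNA marks where the fusion has been. RNase H1 recognises RNA:DNA hybrids, in which a transcript pairs with its template. Each genotype has 1 deposited peak list made from its libraries, so each value below is a single value per genotype without replicate error. Peak height is the authors' score on an unstated scale, and the lists were made separately. Over the whole genome the median height was 0.88 among 8597 control peaks and 1.10 among 9559 ecd1 peaks. A larger ecd1 height is therefore the usual case, and each height below is also given as the share of peaks in its own list that are lower.

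Hedgehog is a secreted ligand made by posterior cells of the wing disc, where the homeodomain proteins Engrailed and Invected are expressed. It binds Patched on neighbouring anterior cells, which frees the membrane protein Smoothened from inhibition. Smoothened acts through a complex held by the kinesin-like protein Costal-2 and keeps the transcription factor Cubitus interruptus (Ci) in its activating form. Engrailed represses *ci* and allows *hh* expression, so the ligand and the response are kept in separate compartments. The *en*-*inv* region and *hh* are also well-known targets of Polycomb repression. Discs were profiled whole within the *nub* domain, so anterior and posterior cells are pooled, and a change in the share of cells that carry a signal cannot be told apart from a change per cell.

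Peaks were listed for 6 of the 7 genes in control discs and for all 7 in ecd1 discs, where 84.3% and 89.1% of the 9826 genes had one. The exception in control was *cos*. Within 2000 bp of the peaks listed for these genes lay 14 control and 13 ecd1 peaks, and within 2000 bp of the gene spans lay 28 and 21. The gene tables give a single peak per gene, and for this set it was often not the tallest. The listed peak was the tallest within 2000 bp of the span for 2 of 6 genes in control and 2 of 7 in ecd1, against 80.4% and 78.1% of all listed genes. These shares are not matched for the number of peaks, whose median within 2000 bp of a span was 1 in each genotype. In control, *hh*, *en* and *inv* had 6, 4 and 9. Because the listed peak was often not the tallest, the loci are described from the full peak lists.

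*hh* (FBgn0004644, chr3R:23128169-23141906) encodes the ligand. In control discs 6 peaks overlapped its span. The first lay over the left end of the gene (chr3R:23126263-23128943) with a height of 0.82, above 42.8% of the control list. It was followed inside the gene by peaks of 0.47, 1.16, 0.50 and 1.14, and by a 10081 bp peak of 1.70 that ran over the right end towards *unk*. In ecd1 discs 3 peaks overlapped the gene. The peak over the left end had a height of 1.68, above 82.5% of the ecd1 list, the inner one (chr3R:23129941-23134730) 1.69, and the one over the right end 2.22. The left-end interval therefore moved from below the middle of the control list to the upper part of the ecd1 list, while the right-end peak stood near the top of both, above 96.0% and 95.8%. The left-end peak also covers all of *CG31457*, so it cannot be assigned to *hh* alone.

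Inside *hh* the genotypes also differed in the other direction. The control peaks of 0.47, 0.50 and 1.14, above 7.7%, 10% and 72.3% of the control list, overlapped no ecd1 peak. The authors' deposited table gives the interval of the last of them (chr3R:23137775-23138468) as 0.89 higher in control (FDR 1e-05), a height above 92.9% of the regions in that table. On the ecd1 side a region in the left part of the gene has 0.93 in the authors' deposited table (chr3R:23131995-23133585). A further region over the left end (chr3R:23126263-23128620), entered under *CG31365*, has an ecd1-higher entry of 0.82 in the authors' deposited table. *hh* thus held a region higher in control and a region higher in ecd1 within 1 gene. The further ecd1-higher region lay only partly in it.

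*ptc* (FBgn0003892, chr2R:8649649-8665223) encodes the Hedgehog receptor and is itself switched on by the pathway. A broad peak filled the left and middle parts of the gene in both genotypes. In control it was divided into a peak of 0.72 (chr2R:8650492-8652202) and one of 1.37 (chr2R:8652220-8660138), which adjoin each other. In ecd1 it was 1 peak of 9801 bp with a height of 1.60 (chr2R:8650635-8660435). That height stood above 79.1% of the ecd1 list, and the taller of the control peaks above 86.1% of its own. An ecd1 peak of 0.46 in the right part of the gene (chr2R:8660928-8662285), above 3.5% of the ecd1 list, had no control counterpart. The DNA left of the gene held a control peak of 0.73 reaching the gene end (chr2R:8645142-8649662), and in ecd1 a narrower peak of 1.5 ending 2249 bp short of the gene (chr2R:8645486-8647400).

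All differing regions found at *ptc* were higher in ecd1. The authors' deposited table lists for the gene a region of 1.06 in the left flank (chr2R:8646200-8647257), 2392 bp from the span. Inside the gene, the authors' deposited table enters a region of 0.74 under the non-coding gene *CR44281*, which lies within *ptc*, and one of 0.47 under the neighbour *Acsl*. No region within 2000 bp of *ptc* was given as higher in control.

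*smo* (FBgn0003444, chr2L:277582-282167), the gene of the signal transducer, had a listed peak outside its span in both genotypes. This peak lay just left of the gene and inside *CG17078*, which overlaps the gene. The height there was 0.73 in control (chr2L:276587-277101) and 1.12 in ecd1 (chr2L:276587-277405), above 32.9% and 51.4% of the respective lists. A control peak of 0.70 over the right end (chr2L:281114-283782), shared with *CG11601*, met no ecd1 peak, and in ecd1 discs no peak overlapped the span. The authors' deposited tables place both differing regions listed for *smo* outside it. One of 0.68, higher in ecd1, was 3559 bp away (chr2L:273266-274023), and one of 0.38, higher in control, was 1278 bp away (chr2L:275782-276304), in the authors' deposited tables. Neither is specific to the gene, since the same intervals are listed for *CG17078* and *CG11555*, and the second overlaps no called peak of either genotype.

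*cos* (FBgn0000352, chr2R:7382176-7387115) encodes Costal-2, the scaffold that ties Ci to its kinases. It had no control peak within 2000 bp of its span. In ecd1 a peak of 0.72 crossed its left end (chr2R:7379427-7382915), above 19.6% of the ecd1 list. Of the 3489 bp of this peak 740 bp lay in *cos* and 2473 bp in the end of the neighbouring gene *Dscam1*. The authors' deposited table gives its outer part, 1964 bp from *cos*, as 0.64 higher in ecd1 with an FDR of 0.00924. That region lies over *Dscam1* and not over *cos*.

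*ci* (FBgn0004859, chr4:47710-57041) encodes the transcription factor that carries out the response, and lies on the small chromosome 4. It had 3 peaks inside the gene in each genotype, at matching positions. The first was 0.85 high in control and 0.84 in ecd1 (starting at chr4:49032), and the second, with identical ends in both lists (chr4:51820-52578), 0.73 and 0.80. The rightmost, again with identical ends (chr4:55301-56520), was 0.67 high in control and 1.53 in ecd1. The first and second peaks stood lower in the ecd1 list than in the control list (29.1% against 46.1%, and 25.8% against 32.9%), and the rightmost stood higher, above 76.1% against 26.6%. Nearly the whole of this peak (chr4:55301-56492) is given as 1.08 higher in ecd1 by the authors' deposited table (FDR 2e-05). This was the greatest height listed for any of the 7 genes. The same region is also listed for *CR43957*. The listed difference at *ci* lay at 1 of its 3 peaks, and the other 2 differed by at most 0.07 in height between genotypes.

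**Figure D1:**
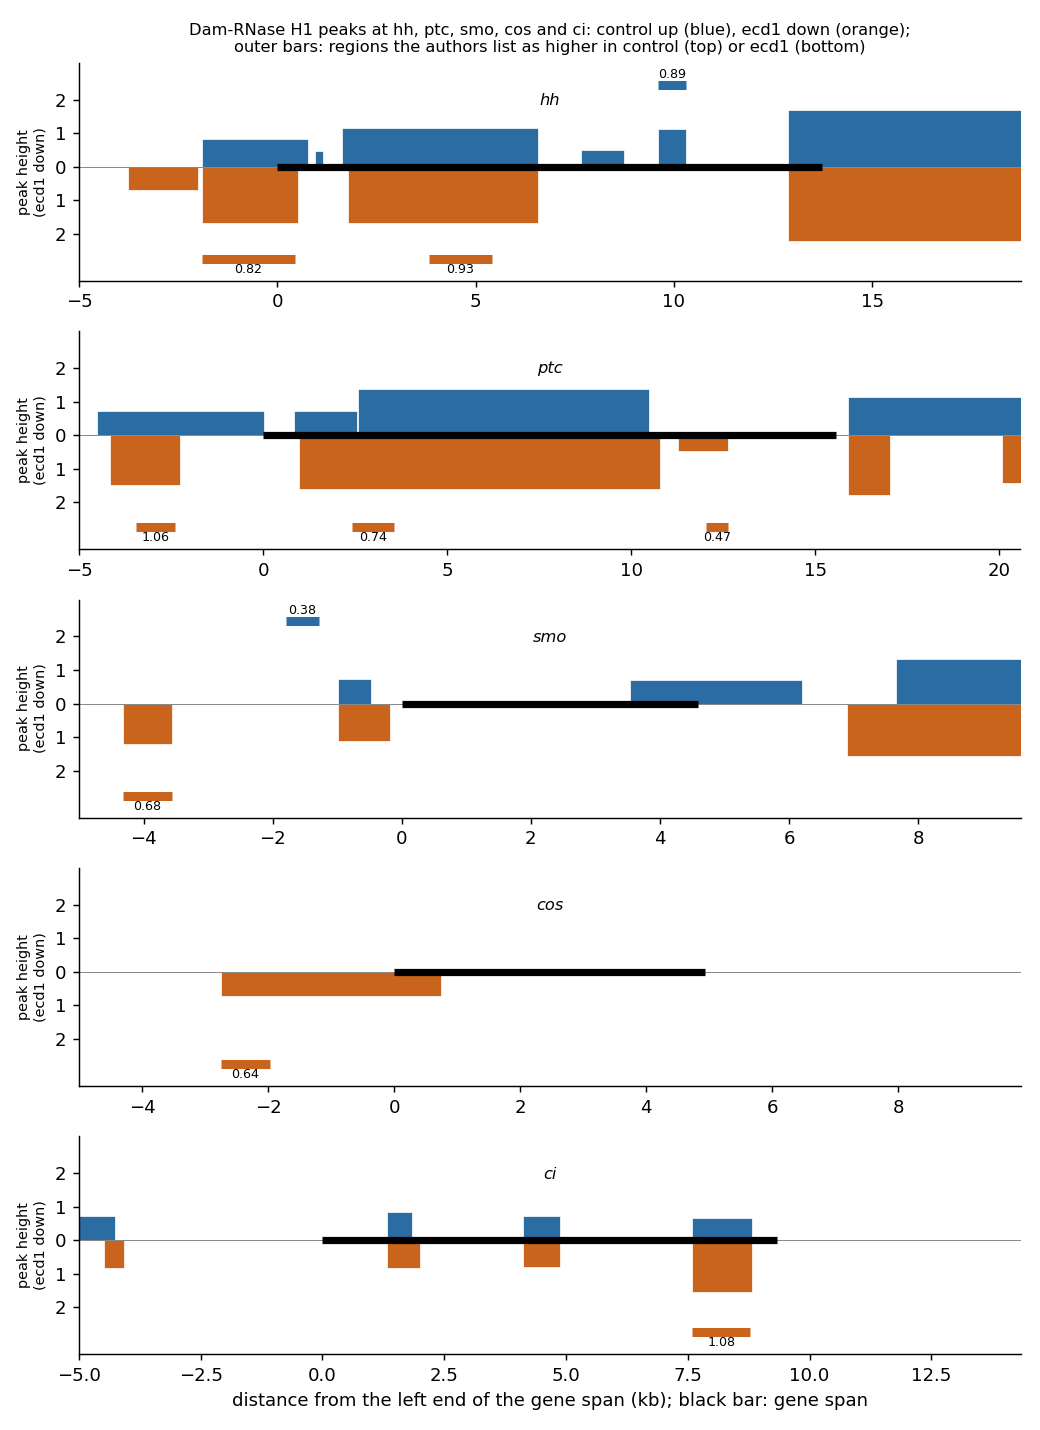
Dam-RNase H1 peaks along *hh*, *ptc*, *smo*, *cos* and *ci*. The x axis is the distance from the left end of each gene span in kb and the y axis the authors' peak height, with control upwards in blue and ecd1 downwards in orange; outer bars with their heights are regions the authors list as higher in control (top) or ecd1 (bottom) for the gene or within 2000 bp of it. At *ci* the peaks match in position and the rightmost differs in height (0.67 and 1.53), and at *hh* the control peak of 1.14 has no ecd1 partner.

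*en* (FBgn0000577, chr2R:11524006-11528210) encodes the posterior selector protein that gives the posterior compartment its identity. Control signal at the gene was low and spread out. It consisted of 4 peaks of 0.75, 0.53, 0.48 and 0.63 from left to right, each above at most 34.9% of the control list, which together lay between chr2R:11520717 and chr2R:11530964. In ecd1 there were 2 taller peaks. One of 1.33 lay 418 bp left of the gene (chr2R:11521895-11523588) and one of 1.12 over its right end (chr2R:11526440-11530120), above 65.5% and 51.4% of the ecd1 list. The stretch around the left end of the gene was under a control peak and under no ecd1 peak. The authors' deposited table has a control-higher region of 0.43 over this end (chr2R:11523056-11524606, FDR 0.00185), whose left part still overlaps the ecd1 peak of 1.33. A region inside the gene is 0.85 higher in ecd1 (chr2R:11526548-11527656) by the authors' deposited table.

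*inv* (FBgn0001269, chr2R:11474465-11509695), the paralogue of *en* beside it, is the longest of the 7 genes at 35231 bp. Within 2000 bp of its span lay 9 control peaks, from 0.35 to 1.42 in height, and 8 ecd1 peaks, from 0.95 to 2.20. A 498 bp peak in its left part (chr2R:11478628-11479125) had the same ends in both lists and heights of 1.39 and 2.20, above 86.9% and 95.6% of the lists. A peak left of the gene (chr2R:11470975-11472996), also with the same ends, had nearly equal heights of 0.92 and 0.95, above 53.2% and 37.8% of the lists. In the middle of the gene, control peaks of 0.95 and 1.39 corresponded to a single ecd1 peak of 1.23 (chr2R:11485689-11495318). These control peaks stood above 56.2% and 86.9% of their list, and the ecd1 peak above 59% of its own. Further right the order was reversed, with control peaks being wide and ecd1 peaks split. The control peak of 0.98 (chr2R:11498485-11501986) corresponded to ecd1 peaks of 1.64 and 1.06. It stood above 58.8% of the control list, and they stood above 80.7% and 46.9% of the ecd1 list. The control peak of 0.86 (chr2R:11502606-11505970) met an ecd1 peak of 1.33 and touched another of 1.42 at its last base. Their shares of lower peaks were 47.2% in control and 65.5% and 70.7% in ecd1. The control peak of 0.35 over the right end of the gene, above 1.4% of the control list, met no ecd1 peak.

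One differing region of *inv* lay at such a split. The gap between the ecd1 peaks of 1.64 and 1.06 is the region that the authors' deposited table gives as 0.80 higher in control (chr2R:11499722-11500789). The ecd1-higher region of the authors' deposited table, with a height of 0.44 (chr2R:11485729-11486069), covers most of the short interval between the control peaks of 1.00 and 0.95, at the left end of the ecd1 peak of 1.23. It is 341 bp wide and above 6.2% of the regions in that table. Each gene has at most 1 region per direction in these tables, which do not show whether the other intervals of *inv* differed.

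**Figure D2:**
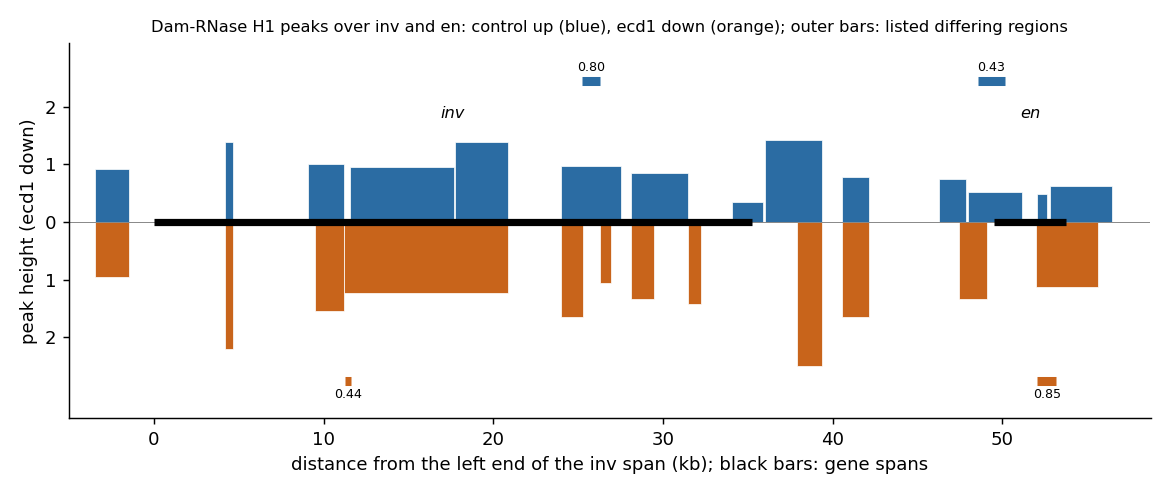
Dam-RNase H1 peaks over *inv* and *en* and the DNA between them. The x axis is the distance from the left end of the *inv* span in kb and the y axis the authors' peak height, control upwards in blue and ecd1 downwards in orange; outer bars are regions the authors list for the 2 genes as higher in control (top, 0.80 and 0.43) or in ecd1 (bottom, 0.44 and 0.85). Over the right part of *inv* the ecd1 peaks are narrower and taller than the control peaks they overlap, and at *en* they are taller.

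Across the 7 loci, most peaks of one genotype had a partner in the other. Of the 28 control peaks within 2000 bp of the gene spans, 23 overlapped an ecd1 peak (82.1%), and 19 of the 21 ecd1 peaks met one of control (90.5%). Over all peaks these shares were 83.5% and 76.8%. The 5 control peaks without a partner were the 3 inside *hh*, the one over the right end of *smo* and the one over the right end of *inv*. The 2 ecd1 peaks without a partner were the one at *cos* and the one in the right part of *ptc*. The peaks of 0.47 and 0.50 in *hh*, 0.35 at *inv* and 0.46 in *ptc* each stood above at most 10% of their list.

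Where peaks overlapped, the ecd1 peak was usually the taller. Pairs were taken where the control peak lay within 2000 bp of a gene span, and the ecd1 peak could lie further away. These loci gave 26 overlapping pairs, of which 24 had the larger height in ecd1 (92.3%), with a median difference of 0.54. Among all 7772 overlapping pairs in the genome the share was 80.7% and the median difference 0.28. The 2 exceptions were the first peak of *ci*, with a difference (ecd1 minus control) of -0.01, and the control peak of 1.39 in the middle of *inv*, with -0.16. The largest difference, 1.07, was at a peak between *inv* and *en*, with heights of 1.42 in control and 2.49 in ecd1 (chr2R:11512385-11513849 in ecd1). At *en* the differences ran from 0.49 to 0.80, at *hh* from 0.52 to 0.86 and at *ptc* from 0.23 to 0.88. Ranked within its own list, the ecd1 peak stood higher in 18 of the 26 pairs and lower in 8, where over the genome it stood higher in 54.0% of pairs. Several pairs share a peak, so the pairs are not independent, and no test was made on them.

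**Figure D3:**
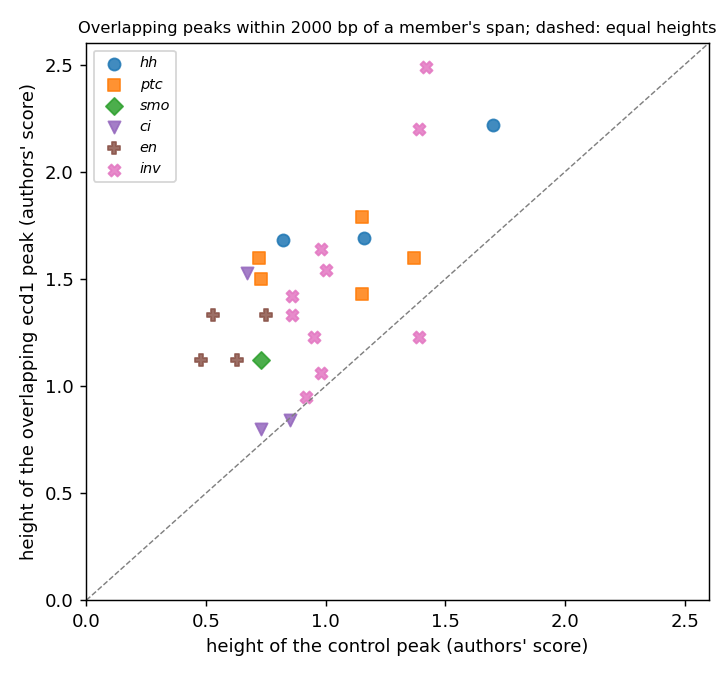
Height of each control peak (x axis) against the height of the ecd1 peak overlapping it (y axis), both the authors' score. The 26 pairs are those whose control peak lay within 2000 bp of a gene span. Symbols mark the genes, the dashed line marks equal heights, and 24 of 26 points lie above it; *cos* has no pair.

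The share of each gene under a peak did not follow the heights. In *hh* the covered share of the span was 62.2% in control and 44.9% in ecd1, in *en* 73.3% and 42.1%, and in *inv* 56.4% and 44.8%. In *smo* it was 23.0% and 0%. Coverage was larger in ecd1 for *ptc* (61.9% and 71.6%) and *cos* (0% and 15.0%), and close for *ci* (26.7% and 28.4%). The mean height over covered bases was higher in ecd1 for all 5 genes covered in both genotypes, as it was for 82.3% of genes at least as long as the shortest of the 7 and covered in both. It was 1.08 in control and 1.76 in ecd1 for *hh*, 0.55 and 1.12 for *en*, and 0.99 and 1.34 for *inv*. Less coverage together with greater mean height was thus seen at *hh*, *en* and *inv*, 3 of 5 genes. Among 2351 genes covered in both genotypes and at least as long as the shortest of the 7, this combination occurred in 36.5%. For genes of that length the median covered share was 14.5% in control and 15.1% in ecd1, and *hh*, *ptc*, *ci*, *en* and *inv* were above it in both.

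**Figure D4:**
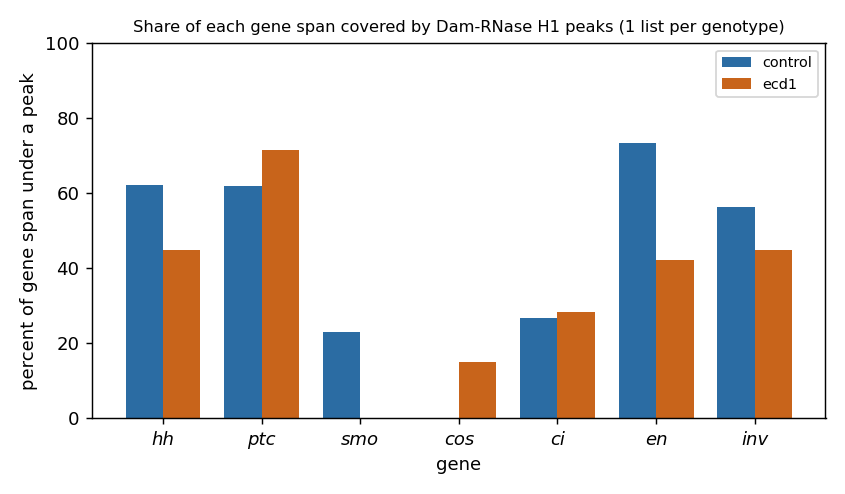
Percent of each gene span under a Dam-RNase H1 peak (y axis) for the 7 genes (x axis), control in blue and ecd1 in orange, with 1 value per genotype and no error bars. Bars are lower in ecd1 for *hh*, *smo*, *en* and *inv* and higher for *ptc*, *cos* and *ci*.

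In the authors' comparison of the genotypes, all 7 genes were listed with a region higher in ecd1, where 57.1% of the 9826 genes with a peak were. A region higher in control was listed for 4 of the 7, namely *hh*, *smo*, *en* and *inv*, where 22.1% of all genes had one. These 4 genes stood in both tables, as did 12.3% of all genes, a share not matched for gene length. Longer genes were listed more often. Among the 3112 genes at least as long as *en*, the shortest of the 7, the shares were 69.8% and 31.4%. The heights listed in the authors' deposited tables for the 7 genes ran from 0.44 to 1.08 on the ecd1 side (median 0.85, and 0.75 over all listed genes) and from 0.38 to 0.89 on the control side (median 0.62, and 0.54 over all listed genes). With a height of at least 1 required, *ptc* and *ci* were left on the ecd1 side, 2 of 7 beside 12.4% of all genes. On the control side 0 of 7 were left, beside 1.11%. The 12.4% and 1.11% are not matched for gene length either. For *ptc*, *smo* and *cos* the listed ecd1-higher region lay outside the gene. With 7 genes and no values per library, these counts describe the loci and were not tested.

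A further 25 genes of the pathway were examined, grouped by role. A peak in either gene table was listed for 21 of them. A region higher in ecd1 was listed for 17 of these (81.0%) and a region higher in control for 8 (38.1%), beside 57.1% and 22.1% of all genes. Of the 21, 19 were at least as long as *en*, a length at which the shares were 69.8% and 31.4%. Listed peak heights were larger in ecd1 for 18 of the 19 genes in both tables, and 79.7% of all 7212 genes in both tables showed the same. The exception was *ttv*, which encodes a heparan sulfate polymerase needed for Hedgehog spread, with 0.93 in control and 0.89 in ecd1. The peaks listed for a gene can be different intervals in the genotypes, and were the same interval for 1683 of the 7212 genes.

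Of the 6 genes of ligand maturation, release and spread with a peak, 5 were listed as higher in ecd1 (83.3%, beside 57.1% of all genes). Among genes at least as long as *en* the shares were 69.8% on the ecd1 side and 31.4% on the control side. The glypican genes *dlp* and *dally*, whose products bind the ligand at the cell surface, had heights of 1.05 and 0.88 in the authors' deposited table. Lower heights of 0.73 for *shf*, a secreted factor of Hedgehog stability, 0.70 for *ttv* and 0.60 for *rasp*, the acyltransferase that lipidates the ligand, stood in the authors' deposited table. *disp*, which encodes the transporter that releases it, had a listed peak in ecd1 only, with a height of 0.47, and no differing region. *dlp* alone in this group (16.7%, beside 22.1% of all genes) was also listed on the control side, at 0.39 in the authors' deposited table. That region overlaps no called peak of either genotype. The regions of *shf*, *ttv* and *rasp* and the control-side region of *dlp* are also listed for other genes.

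All 3 genes of reception had a region higher in ecd1 and none had one higher in control, beside 57.1% and 22.1% of all genes. Among genes at least as long as *en* the shares were 69.8% and 31.4%, and counts over 3 genes were not tested. Co-receptor gene *boi* had the greatest height of the 25 genes, 1.71 inside the gene in the authors' deposited table (chrX:2449297-2450272), above 99.3% of the regions listed. The same interval is also listed for *z*. The peaks under it were 0.61 in control and 2.10 in ecd1. The second co-receptor gene, *ihog*, was listed with a peak of 1.82 in ecd1 and none in control, and with a difference of 1.04 in the authors' deposited table (chr2L:6945595-6945987). *Gprk2*, whose kinase phosphorylates Smoothened, was listed at 0.77 in the authors' deposited table.

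Genes of transduction and Ci processing with a peak were listed in both directions, 5 of 8 on each side (62.5%). Over all genes the shares were 57.1% on the ecd1 side and 22.1% on the control side. For genes at least as long as *en* they were 69.8% and 31.4%. *sgg*, the glycogen synthase kinase gene, had 1.64 higher in ecd1 inside the gene (chrX:2659440-2660100) and 0.74 higher in control over its left end (chrX:2632995-2634016) in the authors' deposited tables. *Pka-C1*, the protein kinase A catalytic subunit gene, had 1.07 and 0.73, and *CkIalpha*, the casein kinase gene, 0.91 and 0.61, in the same order in the authors' deposited tables. These kinases phosphorylate Ci ahead of its processing. The *CkIalpha* regions lay 4665 and 2485 bp left of the gene and are also listed for *Tomosyn*. Its control-higher region overlaps no called peak of either genotype. The control-higher region of *sgg* is also listed for *PI4KIIIalpha*. The ubiquitin ligase genes differed among themselves. *slmb* had 1.11 on the ecd1 side, *rdx* had 0.73 on the ecd1 side and 0.46 on the control side, and *Cul1* had 0.54 on the control side alone in the authors' deposited tables. The *slmb* region is also listed for *CG5793*. Called peaks under the control-higher region were taller in ecd1 at *Cul1* (0.72 in control, 0.82 in ecd1) and *Pka-C1* (0.82 and 1.34). At *rdx* they were 0.70 in control and 0.43 in ecd1, and at *sgg* 1.06 in control with no ecd1 peak. *Cul3* and *dco* had peaks but no differing region, and *fu* and *Su(fu)*, which encode a kinase and an inhibitor bound to Ci, had no peak within 2000 bp in either genotype.

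Beside 57.1% of all genes and 69.8% of those at least as long as *en*, all 4 target genes had a region higher in ecd1. These had heights in the authors' deposited table of 1.24 for *caup* and 0.77 for *ara*, homeobox genes of the Iroquois complex, 1.06 for *kn*, a transcription factor gene of the central wing, and 0.80 for *dpp*, the BMP ligand gene. *ara* and *caup* were also listed as higher in control (50%), each at 0.48 in the authors' deposited table. On that side the shares were 22.1% of all genes and 31.4% of those at least as long as *en*. The ecd1-higher region of *ara* lay 4938 bp outside its span. The control-higher regions of *ara* and *caup* lay 1682 and 425 bp outside theirs. At *caup* the listed peak was 0.99 in control and 2.66 in ecd1, and at *kn*, with the same ends in both lists, 1.79 and 2.50. The tallest control peak within 2000 bp of *caup* was 1.56.

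**Figure D5:**
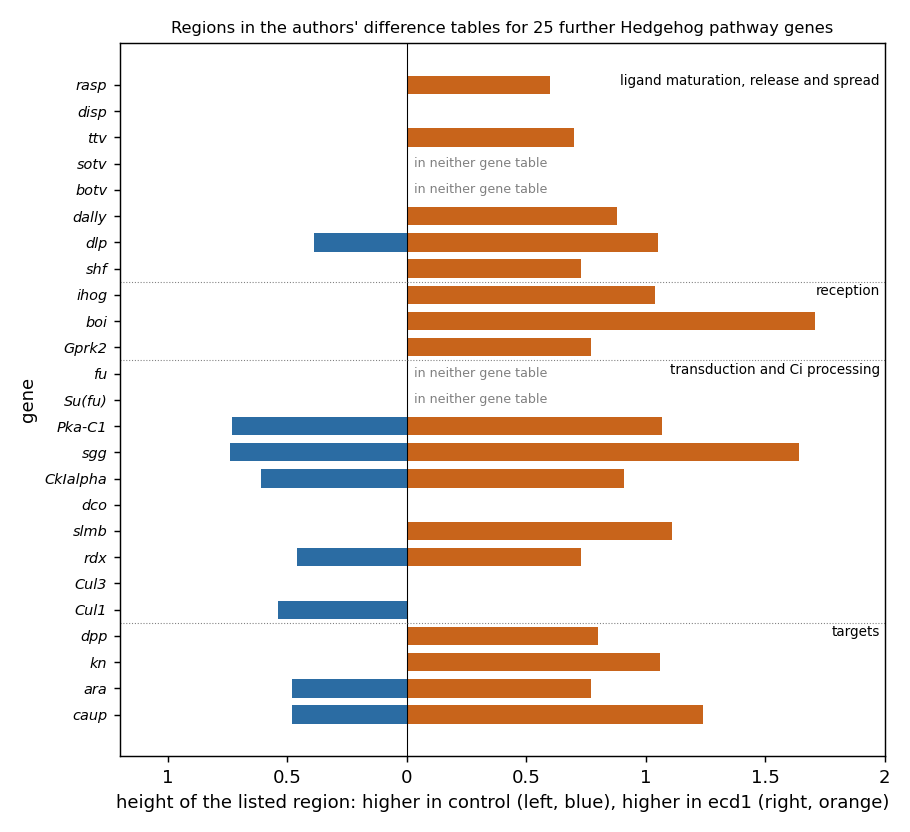
Heights of the regions that the authors list for 25 further genes of the pathway (y axis, grouped by role), with regions higher in ecd1 to the right in orange and regions higher in control to the left in blue (x axis, authors' score). Bars to the right are present for 17 genes and to the left for 8; *boi* (1.71) and *sgg* (1.64) are the longest.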

How the data were processed

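The deposited tables cover Dam-RNase H1 binding in wing discs of 2 genotypes and hold no value of a single library, so no depth, replicate error or test could be computed. The genome build was BDGP6, per the submitters' processing notes. How reads were aligned, peaks called, and replicates and Dam-only libraries combined is not given in the sources used here. Peak height is a score deposited by the authors, with neither scale nor log base stated, and the FDR (a q-value) deposited by the authors is under 0.01 for every peak. Regions higher in one genotype are the authors' own comparison, with 1 region per gene and direction. Gene spans came from a RefSeq gene table of Release 6, without strand or exons, which matched 10424 of 10500 genes (99.3%) by symbol or unambiguous synonym. Peaks were assigned to a gene within 2000 bp, and overlap was counted from 1 bp. Shares have 95% Wilson intervals, which cover counting error only and treat neighbouring peaks of a gene as independent. The members and lists were chosen with earlier results of these data known. All 7 members are named, and of the 25 further genes those with the largest and smallest region heights and others that illustrate a count. Python 3.11.15 with pandas 2.3.3 was used; interval counting was tested on simulated data.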

Additional observations from a re-analysis of the deposited data

How the results depend on the processing

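The number of peaks near the 7 genes depended on the window and on height. Around the gene spans instead of the listed peaks it was 28 in control and 21 in ecd1. Within 5000 bp of the listed peaks it was 21 in each genotype. Among peaks with a height of at least 1 it fell to 2 and 8. The share of control peaks that met an ecd1 peak, 92.9% near the listed peaks (95% Wilson interval 68.5 to 98.7), was 50.0% with a reciprocal overlap of 50% and 100% among peaks with a height of at least 1. For ecd1 peaks, 76.9% (49.7 to 91.8), the last setting gave 25.0%. The height limit was put on both lists, and control heights were usually the smaller. All 8 ecd1 peaks kept by the limit overlapped a control peak when control peaks of any height were counted. At that height, listed regions were present for 2 of the 7 genes on the ecd1 side and 0 on the control side, and for 8 and 0 of the 25 further genes. The other alternatives kept counts within 1.5 times and shares within those intervals. The background of long genes and the shares around gene spans were added after seeing the data. No paired analysis was possible because the files used hold no values per library, and leaving out replicates was not run for the same reason.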

Other observations

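Between *inv* and *en*, more than 2000 bp from either gene, a further peak had heights of 0.78 in control (chr2R:11515033-11516609) and 1.65 in ecd1 (chr2R:11515033-11516628). No differing region is listed there for either gene. *dpp* had 10 control and 12 ecd1 peaks within 2000 bp of its span, the tallest of 1.09 and 1.99, while its listed peaks were 0.69 and 0.88. *sotv*, which is in neither gene table, nevertheless had peaks of 0.87 in control and 1.10 in ecd1 within 2000 bp of its span.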
